A study of Mus musculus with 14 samples.

Results

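The 10 genes described here belong to the machinery that methylates lysine 4 of histone H3 and were followed across all 14 libraries of a mouse epidermal cell series. They are the 6 SET-domain methyltransferases Setd1a, Setd1b, Kmt2a, Kmt2b, Kmt2c and Kmt2d, and the 4 subunits Wdr5, Ash2l, Rbbp5 and Cxxc1. These 10 genes were taken by name from the 55228 gene symbols of the count table, and all 10 passed the filter on low counts that left 11757 genes for testing. They were chosen by name with measured values of these libraries in view: the fall of Setd1b counts in the distal libraries had been seen in several fits. Their difference between the regions is therefore given as a description, with its standard error (SE) and without a p-value.

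The cells were Lrig1-lineage, Sca1-positive epidermal cells of untreated mice carrying Lrig1CreER and Rosa-TdTomato. In this design the Lrig1 promoter drives an inducible recombinase, so that TdTomato marks cells that expressed this marker of the upper hair follicle, and their descendants. They were taken from tail epidermis at the time point labelled 8w pw1, sorted by flow cytometry to enrich for the upper follicle, and cultured for 1 week in keratinocyte medium before small-pool RNA sequencing. Libraries came from a control, non-memory region (8 libraries), or from the region called distal memory (6 libraries), and the comparison asks how transcript levels differ between cells of these regions. All groups share the genotype, sort, time point and culture. The sample descriptions place the libraries in 4 sets, with 6 and 2 control libraries (control sets 1 and 2) and 2 and 4 distal libraries (distal sets 1 and 2), and no set holds both regions. Whether libraries stem from different animals or cultures is not on the labels, so a p-value here measures library-to-library spread that may be purely technical.

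Methylation of lysine 4 of histone H3 (H3K4) marks active promoters, where the trimethylated form dominates, and enhancers, where the monomethylated form does. The enzymes work in complexes called COMPASS, or COMPASS-like, in which a SET-domain subunit is held active by a shared core of Wdr5, Rbbp5, Ash2l and Dpy30. Setd1a and Setd1b form the complexes responsible for most trimethylation and are brought to CpG islands by Cxxc1; Kmt2a and Kmt2b are linked to menin and act at selected promoters; Kmt2c and Kmt2d place monomethylation at enhancers.

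The 6 methyltransferases form 3 pairs of paralogs, and the ends of their coding sequences are printed to show how far the members of a pair can be told apart by sequence. Each line gives the last 30 codons of the longest annotated coding sequence, 90 bases ending with the stop codon, from the GENCODE M21 annotation of GRCm38. Capitals mark bases that differ from the paralog.
Setd1a: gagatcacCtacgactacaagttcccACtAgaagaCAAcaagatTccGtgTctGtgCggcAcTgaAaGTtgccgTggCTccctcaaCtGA
Setd1b: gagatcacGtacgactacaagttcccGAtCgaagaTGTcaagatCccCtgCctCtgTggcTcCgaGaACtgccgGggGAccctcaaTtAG
Kmt2a: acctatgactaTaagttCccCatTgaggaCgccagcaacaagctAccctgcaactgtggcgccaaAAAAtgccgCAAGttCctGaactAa
Kmt2b: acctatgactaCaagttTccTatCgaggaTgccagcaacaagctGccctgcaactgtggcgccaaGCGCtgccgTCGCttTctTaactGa
Kmt2c: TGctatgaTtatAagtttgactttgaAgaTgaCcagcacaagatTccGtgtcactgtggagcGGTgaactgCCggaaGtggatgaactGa
Kmt2d: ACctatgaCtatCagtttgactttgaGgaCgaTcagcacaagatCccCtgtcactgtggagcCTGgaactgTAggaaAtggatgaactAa
In this window Setd1a and Setd1b differ at 23 bases (74.4% identity), Kmt2a and Kmt2b at 17 (81.1%), and Kmt2c and Kmt2d at 16 (82.2%). Of these differences, 16, 12 and 9 fall on the third codon position. Setd1b has G or C in 26 of its 30 codons at the third position, against 20 in Setd1a. Over the whole coding sequence, the share of G or C at the third codon position was 69.5% in Setd1b, the highest of the 9 genes for which it was computed, 54.7% in Setd1a, and 39.8% in Kmt2c, the lowest. The base composition matters for these libraries because the difference between the regions followed it, as described next.

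Total counts were 4515646 to 7458872 in the control libraries and 2137934 to 4513518 in the distal libraries, so the totals of the regions do not overlap. Of 11757 tested genes, 48.3% passed an adjusted p of 0.05 between the regions in edgeR's quasi-likelihood test, 24.3% higher and 24.1% lower in distal libraries. The difference followed GC content: in the GC quintile of the most GC-rich transcripts, 67.2% were called higher and 1.89% lower, with a median log2 fold change of 1.09. In the lowest quintile 0.343% were called higher and 53.3% lower, with a median of -0.89. The fold changes of the 10 genes, and of the listed genes named, are therefore set beside those after each library's trend with GC content and transcript length was removed, when 18.9% of 11654 genes passed, 10.4% higher and 8.56% lower. What GC content and depth contribute to any one gene was not tested, and neither can be told apart from the region in this design.

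The keratinocyte identity on the labels was matched by Krt5 and Krt14, the basal keratins, at 1647 to 5276 and 2975 to 11126 CPM (read counts relative to the TMM-scaled library total). Lrig1 (26.0 to 91.1 CPM) and Ly6a, which encodes Sca1 (1232 to 2597 CPM), were detected in every library. The summed level of 6 keratinocyte markers was 7217 to 10916 CPM in control and 11475 to 18406 CPM in distal libraries, without overlap; its part in the results was not tested. Krt5 and Krt14 make up most of that sum and, with Itgb4, were called higher, while Trp63 (log2 fold change -0.92, SE 0.12, adjusted p = 1.51e-05 in edgeR's quasi-likelihood test) and Itga6 (-0.83, SE 0.17, adjusted p = 0.000525) were called lower, with all distal values under all control values, and Cdh1 had -0.31 (adjusted p = 0.221). After trend removal Itgb4 (0.45, adjusted p = 0.00766) and Itga6 (-0.57, adjusted p = 0.00989) were called and Trp63 had -0.04. Lrig1 was itself higher in distal libraries (43.9 ± 9.31 CPM, SD, n = 8, against 79.1 ± 10.4, n = 6; log2 fold change 0.85, SE 0.17, adjusted p = 0.000460 in edgeR's quasi-likelihood test) and missed the threshold with the trend removed (0.44, adjusted p = 0.0635). Ly6a was called lower (1880 ± 525 against 1388 ± 155 CPM; log2 fold change -0.44, SE 0.18, adjusted p = 0.0484), a call lost in 11 of 14 fits without 1 library (-0.51 to -0.27 over all 14) and with the trend removed (-0.19, adjusted p = 0.436). Sets of 6 markers for each of 3 other lineages summed to at most 1.86 CPM (immune, 4 of 6 at 0 in all libraries, among them Cd3e), 5.49 CPM (melanocyte, 2 at 0, Dct and Sox10) and 9.86 CPM (endothelial, 3 at 0, Cdh5, Emcn and Vwf). The 6 fibroblast markers, of which Lum was at 0 throughout, summed to 0.535 to 241 CPM in control and 2.30 to 88.7 CPM in distal libraries, with the highest sums in control replicate 1 and distal replicate 3. Without these libraries in turn Setd1b, described next, had log2 fold changes of -1.27 and -1.13. In bulk libraries, fewer cells of a type and less RNA per cell cannot be told apart.

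Setd1b was the member with the clearest separation of the regions. It lies on chromosome 5 (GRCm38, 123142193 to 123168629, plus strand). Its level ran from 24.9 to 54.7 CPM in control libraries, with a median of 38.8, and from 12.8 to 19.97 CPM in distal libraries, with a median of 17.5. Every distal library was below every control library, a pattern seen in 5.65% of the tested genes; 12.7% showed the opposite. The underlying counts were 131 to 367 reads in control and 43 to 87 reads in distal libraries. Means were 39.3 ± 8.97 CPM (SD, n = 8) and 17.1 ± 2.44 CPM (SD, n = 6), which gave -1.20 (SE 0.20) as the log2 fold change. Setd1b was the only one of the 10 genes whose regions did not overlap.

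The median GC content of Setd1b transcripts is 59.4%, above 95.8% of tested genes and within the quintile in which the median gene was higher in distal libraries. After trend removal the log2 fold change was -2.05 (SE 0.22), and with GC content and length taken from the longest transcript it was -2.04. Fits that left out 1 library gave -1.27 to -1.08, and those that left out a set gave -1.29 to -0.95. With the log2 total count as a covariate the value was -1.11 and was not called. Among libraries over 4000000 counts, 8 control and 2 distal, it was -1.28. As Setd1b was picked for its fall in this contrast, these values describe it and support nothing.

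Setd1a, the paralog of Setd1b, showed the opposite difference in the deposited counts. It lies on chromosome 7 (127776670 to 127800122, plus strand) and was among the lowest members, at 6.60 to 13.2 CPM (median 9.52) in control and 10.1 to 22.5 CPM (median 15.8) in distal libraries. The ranges overlap, and both libraries of distal set 1, at 19.8 and 22.5 CPM, exceed every other library. The means were 9.65 ± 2.49 (SD, n = 8) and 15.7 ± 4.94 CPM (SD, n = 6), with a log2 fold change of 0.70 (SE 0.26). This was called higher, but in only 8 of the 14 fits that left out 1 library: the call was lost without control replicate 1, 5, 6 or 8 or distal replicate 1 or 2, with 0.63 to 0.74. It was also lost without control set 1 (0.61) or distal set 1 (0.51). No filter (0.65), thinned counts (0.66) and counts summed per set (0.92) lost it too. So did a replicate block (0.71), libraries over 4000000 counts (0.43) and the total count as a covariate (0.33). With the trend removed the value was -0.26 (SE 0.25), not called. The median length of its annotated transcripts is 823 bases, against 6487 for the longest. With the longest transcript in the trend the value was -0.049, not called. Its counts carry a further limit, since the same-strand protein-coding gene model Gm49388 covers 51.8% of its exon bases, and how reads shared by both models were treated is not stated in the labels. Gm49388 has 0 counts in the table, and Setd1a has 738 over all libraries against 2100 for Setd1b.

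The ratio of Setd1b to Setd1a counts within a library needs no scaling between libraries. It was 2.85 to 6.37 in control libraries (median 4.24) and 0.781 to 1.57 in distal libraries (median 1.18), again without overlap. Set against Wdr5, a core subunit near the middle of the GC range, Setd1b counts gave 0.392 to 0.973 in control (median 0.642) and 0.204 to 0.293 in distal libraries (median 0.236). For both ratios the highest distal library is under the lowest control library. As Setd1b was picked for its fall in this contrast, both ratios describe it and support nothing. The share of other gene pairs whose ratios lie apart was not computed.

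**Figure D1:**
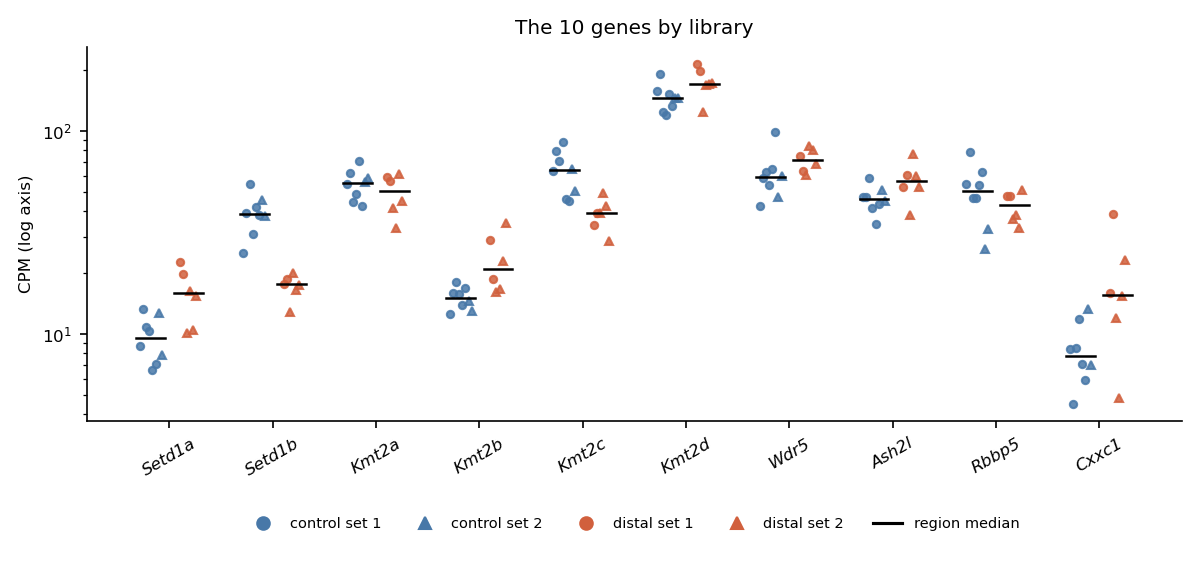
CPM of the 10 genes on a log axis in each library; circles and triangles are sets 1 and 2 of a region, blue is control, orange is distal, and black bars are region medians. Setd1b is the gene whose regions are fully apart, at 24.9 to 54.7 CPM in control and 12.8 to 19.97 CPM in distal libraries.

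Kmt2a and Kmt2b, which encode MLL1 and its close relative, bind menin and, for Kmt2a, keep Hox genes active in development. Kmt2a lies on chromosome 9 (44803355 to 44881296, minus strand) and was at 42.6 to 71.3 CPM (median 55.3) in control and 33.3 to 61.5 CPM (median 50.7) in distal libraries. The ranges overlap over most of their length. Its log2 fold change was -0.15 (SE 0.17) and -0.07 (SE 0.16) with the trend removed, and neither was called.

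Kmt2b lies on chromosome 7 (30568858 to 30588726, minus strand). It was at 12.5 to 18.04 CPM (median 15.0) in control libraries and 16.04 to 35.1 CPM (median 20.8) in distal libraries, where the spread was wider (coefficient of variation 33.1% against 12.7%). The highest value, 35.1 CPM, belongs to distal replicate 6. A log2 fold change of 0.61 (SE 0.22) was called higher, and without distal replicate 6 it was 0.56 and not called. The call was also lost without control set 1 (0.74) or distal set 1 (0.68). It was lost too with no filter (0.56), thinned counts (0.53) and counts summed per set (0.77). A replicate block (0.52), libraries over 4000000 counts (0.098) and the total count as a covariate (0.044) also lost it. After trend removal the value was -0.29 (SE 0.20), not called. The median length of its annotated transcripts is 788 bases, against 8469 for the longest. With the longest transcript in the trend the value was -0.26, not called.

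Kmt2c and Kmt2d, the enhancer methyltransferases, are the longest members, with 20291 and 19931 bases of merged exon. Kmt2c lies on chromosome 5 (25271798 to 25498783, minus strand). It was at 44.9 to 87.8 CPM (median 64.1) in control and 28.7 to 49.6 CPM (median 39.3) in distal libraries; 2 control libraries, replicates 5 and 6 at 45.9 and 44.9 CPM, lie within the distal range. The log2 fold change of -0.70 (SE 0.19) was called lower, also in each of the 14 fits without 1 library (-0.76 to -0.53). The call was lost without control set 1 (-0.56), without distal set 2 (-0.61), with counts summed per set (-0.52), in libraries over 4000000 counts (-0.53) and with the total count as a covariate (-0.27). With the trend removed it was -0.03 (SE 0.16), not called. The median GC content of its transcripts is 46.8%, in the quintile above the lowest, where the median gene had -0.57.

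Kmt2d lies on chromosome 15 (98831669 to 98871204, minus strand) and had the most counts of any member, at 120 to 191 CPM (median 145) in control and 124 to 213 CPM (median 171) in distal libraries. The regions overlap across nearly the whole control range. Its log2 fold change was 0.25 (SE 0.14), not called (0.44 and called without control replicate 2), and turned to -0.81 (SE 0.14), called lower, with the trend removed. The median length of its annotated transcripts is 899 bases, because fragments outnumber the full transcript of 19823 bases. With the longest transcript in the trend the value was -0.49, still called lower. With median lengths the call was lost without control set 1 (-0.67) and without distal set 2 (-0.67).

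**Figure D2:**
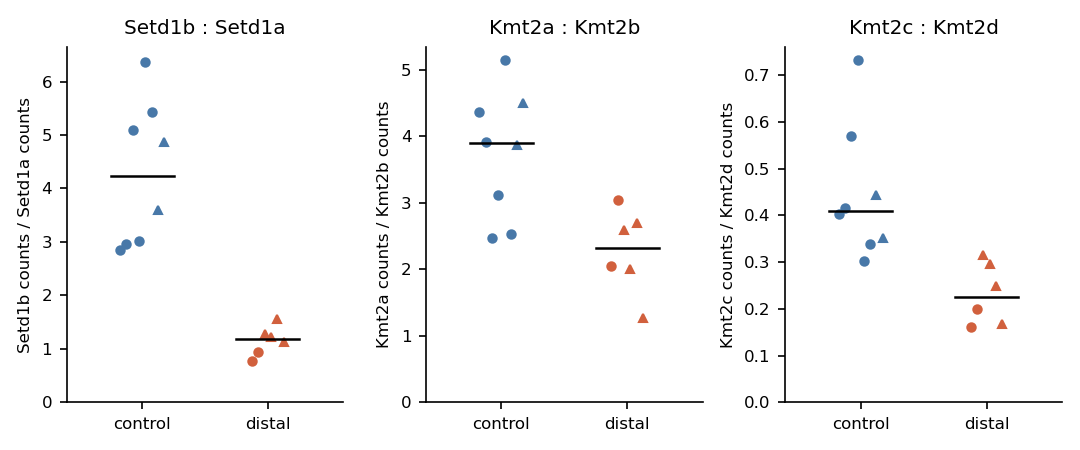
Ratio of raw counts within each library for the 3 paralog pairs, by region, on axes that start at 0; circles and triangles are sets 1 and 2, and black bars are medians. The Setd1b to Setd1a ratio is 2.85 to 6.37 in control and 0.781 to 1.57 in distal libraries, while the other 2 ratios overlap between regions.

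The other pairs also shifted their balance, with overlap. Kmt2a counts over Kmt2b counts were 2.48 to 5.15 in control (median 3.90) and 1.28 to 3.04 in distal libraries (median 2.32). Kmt2c over Kmt2d was 0.303 to 0.731 (median 0.409) against 0.161 to 0.316 (median 0.224). In these 2 pairs the median ratio of the gene with the lower GC content to its paralog was smaller in distal than in control libraries. The GC contents were 51.0% for Kmt2a against 56.2% for Kmt2b, and 46.8% for Kmt2c against 58.4% for Kmt2d. In the Setd1 pair the ratio of Setd1b (59.4% GC) to Setd1a (57.1%) was smaller in distal libraries. Both genes lie in the most GC-rich quintile, and Setd1b was picked for its fall in this contrast. What GC content contributes to these ratios was not tested.

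Of the shared core, Wdr5, a beta-propeller scaffold that binds the SET-domain subunit, lies on chromosome 2 (27515157 to 27536535, plus strand). It was at 42.5 to 98.4 CPM (median 59.2) in control and 60.5 to 83.8 CPM (median 71.7) in distal libraries. The top value, in control replicate 6, stood far above the next control library at 64.8 CPM. Its log2 fold change was 0.24 (SE 0.18), not called; without control replicate 6 it was 0.37 and called higher. After trend removal it was 0.18 (SE 0.17), not called.

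Ash2l, which pairs with Dpy30 and Rbbp5 to activate the enzyme, lies on chromosome 8 (25815996 to 25847694, minus strand). It was at 34.6 to 58.6 CPM (median 46.0) in control and 38.3 to 76.4 CPM (median 56.6) in distal libraries. Distal replicate 3 was the lowest of its region and distal replicate 4 the highest of all. The log2 fold change of 0.30 (SE 0.17) was not called; of the fits without 1 library, the one without distal replicate 3 called it, at 0.40. With the trend removed it was 0.66 (SE 0.17), called higher, also in each of the 14 fits without 1 library (0.56 to 0.77). It was not called without control set 1 (0.55) or without distal set 2 (0.70). With the longest transcript in the trend the value was 0.95, called higher.

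Rbbp5, the subunit that bridges the enzyme to the nucleosome, lies on chromosome 1 (132477365 to 132505659, plus strand). It was at 26.2 to 78.8 CPM (median 50.4) in control and 33.3 to 50.9 CPM (median 43.0) in distal libraries, with the distal range inside the control range. Its log2 fold change was -0.25 (SE 0.22) and 0.09 (SE 0.21) with the trend removed, neither called.

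Cxxc1 encodes CFP1, the CpG-binding subunit particular to the Setd1 complexes. Levels were 4.47 to 13.2 CPM (median 7.71) in control and 4.82 to 38.8 CPM (median 15.5) in distal libraries. Its distal coefficient of variation, 63.8%, was the largest among the 10 genes. Distal replicate 2 was highest at 38.8 CPM and distal replicate 4 lowest at 4.82 CPM, within the control range. The log2 fold change of 1.12 (SE 0.37) was called higher, and without distal replicate 2 it was 0.89 and not called. The call was also lost without control set 1 (0.84) or distal set 1 (0.82). It was lost too with a replicate block (1.06) and with the total count as a covariate (0.049). After trend removal the value was 0.20 (SE 0.34), not called. Among the libraries over 4000000 counts the value was -0.0049, not called.

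In all, 3 of the 10 genes were called higher (Setd1a, Kmt2b and Cxxc1), 2 lower (Setd1b and Kmt2c) and 5 were not called, beside 24.3% higher and 24.1% lower among all tested genes. Their median log2 fold change was 0.25, against -0.16 for all tested genes. After trend removal 1 was higher (Ash2l), 2 were lower (Setd1b and Kmt2d) and 7 were not called, beside 10.4% and 8.56%. The median was then -0.05, against 0.03 for all tested genes. Because the choice of genes used this contrast, nothing is read from these counts.

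**Figure D3:**
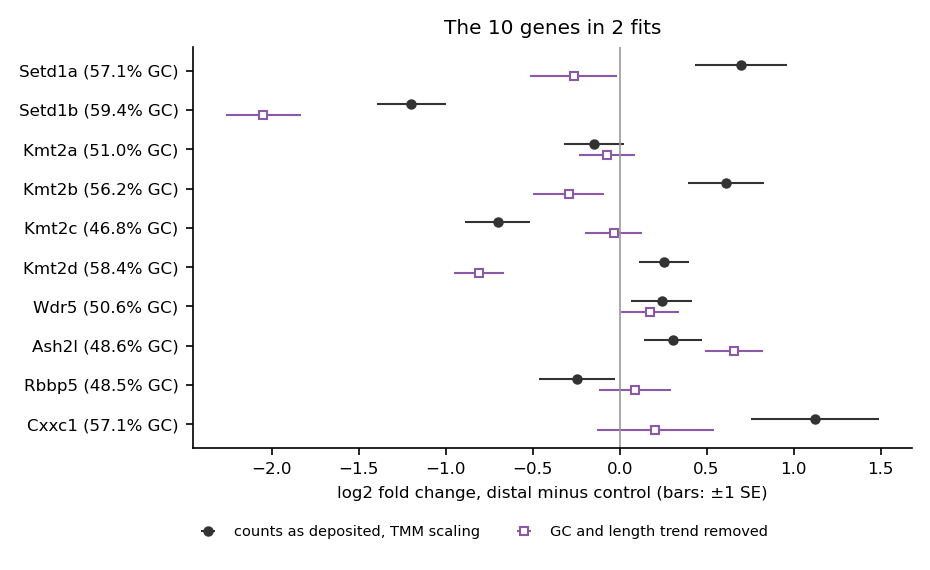
Log2 fold change, distal minus control, with bars of 1 SE, for the 10 genes in the deposited counts (filled circles) and with the GC and length trend removed (open squares); the GC content of each gene is beside its name. Setd1b is at -1.20 and -2.05, whereas Setd1a, Kmt2b, Kmt2d and Rbbp5 are on opposite sides of 0 in the 2 fits.

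Levels can be compared between genes only per length. As CPM per kb of merged exon, control libraries ranked Wdr5 first at 16.95 ± 4.71 (SD, n = 8), followed by Rbbp5 (12.8 ± 4.21), Kmt2d (7.32 ± 1.12), Ash2l (5.14 ± 0.783), Kmt2a (3.29 ± 0.567), Setd1b (3.25 ± 0.744), Kmt2c (3.13 ± 0.770), Cxxc1 (2.11 ± 0.745), Kmt2b (1.56 ± 0.199) and Setd1a (1.42 ± 0.367). Of the core, 3 subunits stood among the first 4. Neighbours differed by less than the larger SD of the pair for Wdr5 and Rbbp5, for Kmt2a, Setd1b and Kmt2c in turn, and for Cxxc1, Kmt2b and Setd1a in turn. Setd1b exceeded Kmt2c in 5 of 8 control libraries.

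In distal libraries the first 4 places were the same, with Wdr5 at 20.01 ± 2.60 CPM per kb (SD, n = 6), Rbbp5 at 10.8 ± 1.82, Kmt2d at 8.73 ± 1.54 and Ash2l at 6.35 ± 1.40. Setd1b went from rank 6 to rank 10, at 1.42 ± 0.202 CPM per kb, below Kmt2c at 1.92 ± 0.349 in 5 of 6 libraries. Cxxc1 (4.65 ± 2.97), Kmt2a (2.97 ± 0.675), Kmt2b (2.40 ± 0.794), Setd1a (2.32 ± 0.728) and Kmt2c filled ranks 5 to 9, each within the larger SD of its next neighbour in that order. Merged exon length overstates the length of the transcripts in use where a gene has several, so the order holds for this length alone. The place of Setd1a carries a further limit, since the gene model Gm49388 covers 51.8% of its exon bases and the treatment of shared reads is not stated.

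**Figure D4:**
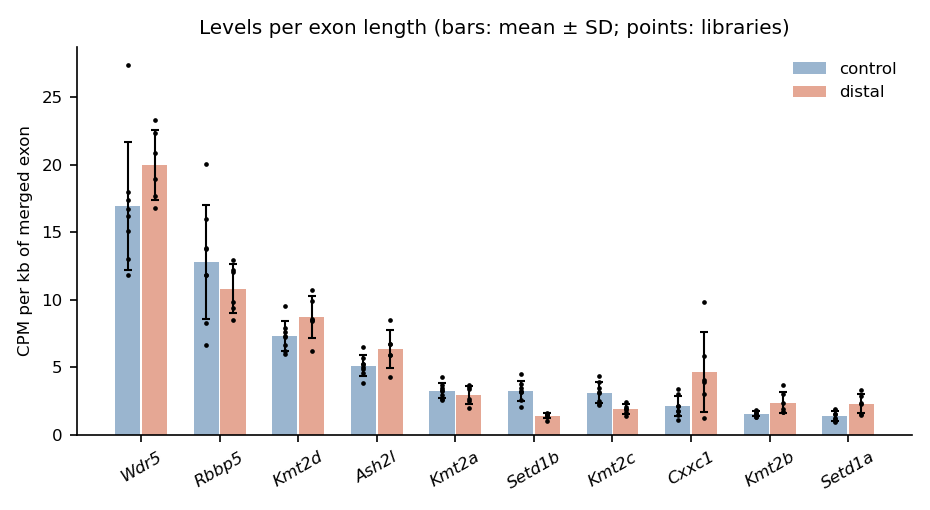
Mean level of the 10 genes as CPM per kb of merged exon (bars start at 0, whiskers are SD, points are libraries), control in blue and distal in orange, ordered by the control mean. Wdr5 leads in both regions at 16.95 and 20.01, and Setd1b goes from 3.25 to 1.42.

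Differences between the 2 sets of a region did not enter the choice of genes and were tested. Each contrast had only 2 libraries on 1 side, so a lack of calls does not show that the sets are alike. No gene of the 11757 tested passed an adjusted p of 0.05 in edgeR's quasi-likelihood test between the control sets (0%) or the distal sets (0%); 969 and 921 had an unadjusted p under 0.05, and DESeq2 called 40 and 31. Among the 10 genes, Rbbp5 was the one with an unadjusted p under that level in either contrast. It was at 46.6 to 78.8 CPM in the 6 libraries of control set 1 and at 26.2 and 32.7 CPM in control set 2. How many of all tested genes lie apart in this way between the control sets was not counted. Its log2 fold change of set 2 against set 1 was -0.96 (SE 0.27; unadjusted p = 0.00249, adjusted p = 0.469 in edgeR's quasi-likelihood test). The distal sets gave -0.26 (SE 0.27, adjusted p = 0.858).

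Setd1b differed by 0.13 (SE 0.29, adjusted p = 0.932) between the control sets and by -0.12 (SE 0.33, adjusted p = 0.959) between the distal sets in edgeR's quasi-likelihood test. Its set means were 38.4 and 41.9 CPM in control and 18.1 and 16.6 CPM in distal sets. The set differences of Setd1b were smaller than its difference between the regions. Since Setd1b was picked for the latter, and no set holds both regions, nothing is read from that comparison. Cxxc1 had the widest set difference in size, -1.001 (SE 0.54, adjusted p = 0.681) between the distal sets, with means of 27.3 and 13.7 CPM. Setd1a had -0.70 (SE 0.40, adjusted p = 0.694) between the distal sets, at 21.1 and 13.04 CPM.

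Other genes of the pathway, which are no members, were grouped in lists by role. Their adjusted p-values from edgeR's quasi-likelihood test are given. The lists were chosen with earlier results of these data known, and their genes are named largely by their p in this same fit. These p-values therefore describe the named genes and are no independent support. Over all tested genes 24.3% were higher and 24.1% lower, with a median of -0.16. With the trend removed 10.4% were higher and 8.56% lower, with a median of 0.03. Of 12 further COMPASS-family subunits, 11 were tested: 2 were higher (Men1 and Bod1), 5 lower (Bod1l, Psip1, Ncoa6, Kdm6a and Wdr82) and 4 not called, with a median log2 fold change of -0.14. Men1, which encodes menin, rose from 15.3 ± 4.01 (SD, n = 8) to 33.4 ± 7.97 CPM (SD, n = 6), with every distal library above every control library (log2 fold change 1.12, SE 0.22, adjusted p = 0.000561). Bod1l, a Setd1a partner at replication forks, fell by 1.06 (SE 0.23, adjusted p = 0.000930) on the log2 scale. Kdm6a, the H3K27 demethylase of the Kmt2c and Kmt2d complexes, went from 46.2 ± 18.1 to 17.2 ± 11.2 CPM (log2 fold change -1.42, SE 0.37, adjusted p = 0.00434). Psip1, which tethers the menin complexes to chromatin, had -0.89 (adjusted p = 0.00226) and Ncoa6, a subunit of the Kmt2c and Kmt2d complexes, -0.83 (adjusted p = 0.00233). Wdr82, the subunit shared by the Setd1 complexes, had -0.50 (SE 0.18, adjusted p = 0.0257), and 7 of the 14 fits without 1 library did not call it (-0.46 to -0.36). Dpy30, the remaining core subunit, was at 77.3 ± 20.3 and 72.4 ± 14.01 CPM (log2 fold change -0.09, SE 0.19, adjusted p = 0.702). With the trend removed 2 of the 11 were called, both lower: Ncoa6 (-0.60, adjusted p = 0.0332) and Hcfc1 (-0.66, adjusted p = 0.00197), a cell-cycle adaptor of the Setd1 and menin complexes, while Men1 had 0.25 (adjusted p = 0.426), Bod1l -0.10, Psip1 -0.15, Kdm6a -0.68, Wdr82 -0.12, Bod1 -0.42 and Dpy30 0.33, none of them called; the list median was -0.15. Ncoa6 lost that call in 8 of 14 fits without 1 library (-0.73 to -0.50 over all 14).

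Of 8 listed enzymes that remove H3K4 methylation, or partners of these enzymes, 7 were tested. Of these 7, 4 were lower, 0 higher and 3 not called, beside 24.1% lower and 24.3% higher among all tested genes. The list median was -0.89. The GC contents of the 4 lower genes were 43.3% (Kdm5a), 47.9% (Kdm5b), 48.3% (Rcor1) and 51.8% (Rcor3). What GC content contributes to their difference was not tested. Rcor1, the CoREST scaffold of the demethylase LSD1, went from 92.0 ± 25.7 to 37.5 ± 3.95 CPM without overlap of the regions (log2 fold change -1.30, SE 0.18, adjusted p = 2.44e-05). Its paralog Rcor3 had -0.96 (SE 0.22, adjusted p = 0.00202). The H3K4 demethylases Kdm5b and Kdm5a had -0.89 (adjusted p = 0.000253) and -1.02 (adjusted p = 0.000345). Kdm1a, which encodes LSD1, had -0.44 (SE 0.18, adjusted p = 0.05004, not called). After trend removal Rcor1 (-0.80, adjusted p = 0.00230), Rcor3 (-1.16, adjusted p = 0.00141) and Kdm5c (-0.79, adjusted p = 0.0257) were called lower, and Kdm5a (-0.30), Kdm5b (-0.38) and Kdm1a (0.06) were not; the list median was -0.38. Fits without 1 library lost the Kdm5c call in 3 of 14 (-0.71 to -0.70); with the longest transcript in the trend Rcor3 had -0.26 and Kdm5c -0.64, not called.

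Proteins that read H3K4 methylation gave 5 lower, 0 higher and 4 not called of 9 tested out of 10 listed, with a median of -0.46. Among all tested genes 24.1% were lower and 24.3% higher. Chd1, a remodeller that binds trimethylated H3K4, fell from 108 ± 12.4 to 56.9 ± 10.5 CPM without overlap (log2 fold change -0.93, SE 0.15, adjusted p = 7.04e-05). Spin1 went from 351 ± 53.7 to 188 ± 46.0 CPM (log2 fold change -0.90, SE 0.16, adjusted p = 0.000191). Ing2 had -1.003 (adjusted p = 0.00478), Phf8 -1.03 (adjusted p = 0.0104) and Bptf -0.46 (adjusted p = 0.00925), the last not called in 6 of the 14 fits without 1 library (-0.38 to -0.28). With the trend removed none of the 9 was called, with Chd1 at -0.24, Spin1 at -0.05, Ing2 at -0.56, Phf8 at -0.56 and Bptf at -0.35, and the list median was -0.05. With the longest transcript in the trend Ing2 had -0.81 and was called lower.

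All 20 listed SET-domain methyltransferases outside the H3K4 complexes were tested. Of these, 3 were higher, 8 lower and 9 not called, beside 24.3% higher and 24.1% lower among all tested genes. The list median was -0.47. Smyd2, which methylates lysines of histones and other proteins, rose from 15.9 ± 4.07 to 49.1 ± 9.80 CPM without overlap (log2 fold change 1.62, SE 0.21, adjusted p = 1.17e-05). Ehmt2, an H3K9 methyltransferase, had 1.05 (adjusted p = 0.00614) and Kmt5a, which monomethylates H4K20, 0.50 (adjusted p = 0.0112). Among the lower genes, Setd2, which trimethylates H3K36, fell from 115 ± 16.99 to 48.7 ± 17.6 CPM (log2 fold change -1.24, SE 0.21, adjusted p = 0.000153). Kmt2e, a relative of the Kmt2 genes without known H3K4 activity, had -1.09 (SE 0.20, adjusted p = 0.000233), and Setdb1, an H3K9 methyltransferase, had -0.97 (SE 0.20, adjusted p = 0.000695). After trend removal Smyd2 (0.94, adjusted p = 0.00247) stayed higher and 3 were called lower: Kmt2e (-0.54, adjusted p = 0.0214), Setd2 (-0.63, adjusted p = 0.0378) and Setdb1 (-0.58, adjusted p = 0.0412). In that setting the 14 fits without 1 library ran from -0.77 to -0.50 for Setd2, -0.68 to -0.47 for Setdb1 and -0.60 to -0.46 for Kmt2e, and 7, 8 and 3 of them lost the call. Smyd2 ran from 0.85 to 0.995 and kept it in all 14, but lost it without control set 1 (0.83, adjusted p = 0.100 in edgeR's quasi-likelihood test). Ehmt2 had -0.04 and Kmt5a 0.26, neither called, and the list median was -0.04. With the longest transcript in the trend Setd2 had -0.44 and was not called. Without control set 1, which leaves 2 control libraries, each gene of the lists that was called with the trend removed lost its call.

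**Figure D5:**
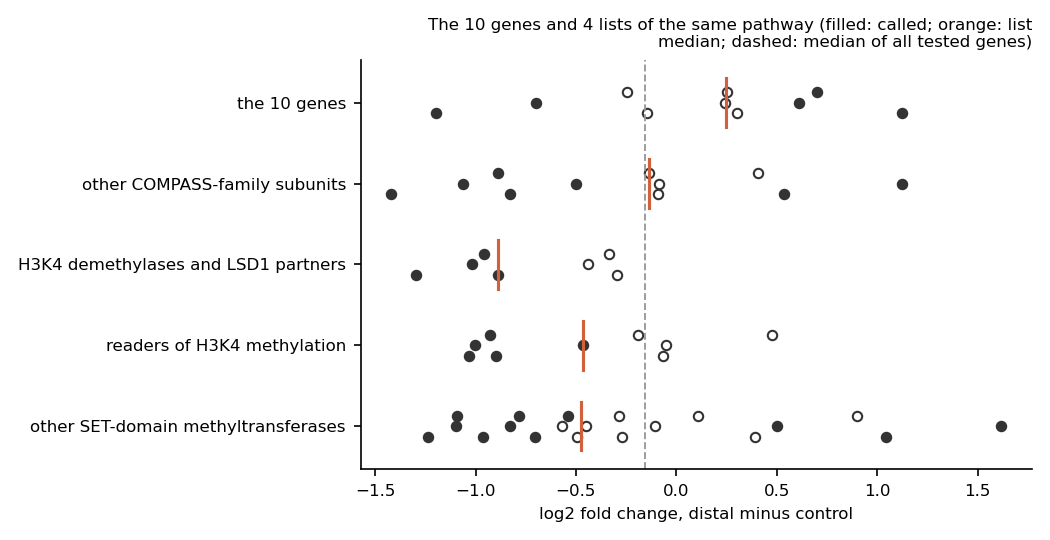
Log2 fold change, distal minus control, of the 10 genes and of the tested genes of 4 lists; filled points passed an adjusted p of 0.05, orange bars are list medians and the dashed line is the median of all tested genes (-0.16). The demethylase list has its median at -0.89 and the 10 genes at 0.25; with the GC and length trend removed these medians are -0.38 and -0.05.

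Likeness to Setd1b was measured over the 14 libraries by Pearson's correlation of log2 CPM after each region's mean was subtracted, among 9113 genes with an average log2 CPM of at least 3. The highest values were Saal1 (0.90), Bcorl1 (0.88), Auh (0.84), Depdc5 (0.80) and Melk (0.80). Of the 10 genes Ash2l was closest (0.53, with 171 genes more alike), followed by Wdr5 (0.40) and Setd1a (0.37). Cxxc1, the partner of Setd1b, had -0.02. Between any 2 of the other 9 genes the highest correlation was 0.60, for Kmt2a and Kmt2d, and the lowest -0.44, for Wdr5 and Cxxc1. These correlations share libraries and depth, are given without a p-value, and rest on 43 to 367 Setd1b reads per library.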

How the data were processed

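For 14 libraries the authors deposited raw counts, whole and not normalized, with gene symbols as rows. Libraries were made with Smart-Seq2 and Nextera XT, per the labels' protocols. The submitters' processing notes name HISAT2, featureCounts and the build mm10/GRCm38; use of strand and the handling of multi-gene reads are not given in the sources used here. Depth was 2137934 to 7458872 counts, and low genes are least precise in distal libraries.

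The analysis used edgeR 4.0.16 in R 4.3.3, with filterByExpr on the regions, TMM and the robust quasi-likelihood F test (two-sided), Benjamini-Hochberg adjusted over all tested genes with a threshold of 0.05. "Called" means past that threshold. SE is the absolute log2 fold change over the square root of F. Sets were compared in 1 model with 4 sets. For the trend removal, each library's deviation of log2 CPM (prior count 2) from that gene's mean was modelled by natural splines (4 degrees of freedom) of median transcript GC content and log2 length and entered as offsets. Alternatives were DESeq2 1.42.0, other scalings, no filter, thinned or summed counts, depth, a replicate block and left-out libraries or sets. The longest-transcript trend, and the trend removal without each library or set, were chosen after seeing the data. The code was tested on simulated data.

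The members and lists were chosen with earlier results of these data known. Named genes are the 10 members, the 4 genes with the smallest p of each list and every gene of a count of 5 or fewer, the 5 genes most like Setd1b, and Lrig1, Ly6a, Krt5 and Krt14; Kdm1a, which missed the threshold, Dpy30 and the other keratinocyte markers were added after their values were seen. Pagr1a, Rcor2 and Ing4 did not pass the filter.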

Additional observations from a re-analysis of the deposited data

Results flagged for a closer look

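Wdr5 in control replicate 6, at 98.4 CPM, stood far above the other 7 control libraries by Dixon's ratio for the gap over the range (0.600). Chance gives such a gap in about 1 of 20 groups, and 20 groups (10 genes in 2 regions) were examined, of which 1 showed it.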

How the results depend on the processing

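Setd1b was lower in distal libraries under every alternative run, and the call was lost with the log2 total count as a covariate alone. Because Setd1b was picked for this fall in the same libraries, these refits describe it and support nothing. The total counts of the regions do not overlap, so depth and region cannot be told apart in the fit with that covariate. Only 2 distal libraries exceed 4000000 counts, and Setd1a and Cxxc1 rest on the fewest reads. In the statements below "higher" and "lower" are counts of called genes, distal against control unless a set contrast is named, and the cause of a change was not tested. The main values are 3 higher and 2 lower of the 10 genes, 2853 and 2828 of all tested genes, and 5 and 22 of the 47 tested genes of the other lists. Counts of these kinds that are not repeated for a setting changed by no more than 1.5-fold. Where the trend was removed and a set was also left out, counts over all genes are not given.

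With upper-quartile scaling 5 of the 10 genes were higher, Kmt2a turned to 0.028 and Hcfc1 to 0.087, and between the distal sets Wdr5 turned to -0.029 and Ash2l to -0.10. The median log2 fold change of all tested genes between the regions was 0.0040 with this scaling, against -0.16 in the main fit. DESeq2's size factors turned Ash2l to -0.044 between the distal sets. DESeq2's own test gave -0.044 there too, and called 11 genes higher and 29 lower between the control sets and 30 higher and 1 lower between the distal sets. Without a filter on low counts 1 of the 10 genes and 3 genes of the other lists were higher, 90 genes were higher and 23 lower between the control sets, 75 and 6 between the distal sets, and Kmt2d turned to 0.0011 between the control sets.

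With the GC and length trend removed 1 of the 10 genes was higher, 1210 of all genes were higher and 998 lower, and 1 and 8 genes of the other lists. Setd1a turned to -0.26, Kmt2b to -0.29, Kmt2d to -0.81, Rbbp5 to 0.090, Bod1 to -0.42 and Ehmt2 to -0.044. Between the control sets Setd1a turned to -0.032 and Setd1b to -0.13; between the distal sets Setd1b turned to 0.021, Kmt2b to 0.055, Kmt2c to -0.037 and Ash2l to -0.044. With the longest transcript in the trend Wdr5 turned to -0.080.

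After thinning, 1 of the 10 genes was higher; between the control sets Setd1a turned to -0.15, Kmt2d to 0.021 and Ash2l to -0.016, and between the distal sets Ash2l to -0.018. With counts summed per set 1 of the 10 was higher and 1 lower, 1376 of all genes and 12 of the other lists were lower, and Kmt2a turned to 0.036, Rbbp5 to 0.16 and Hcfc1 to 0.19. With the total count as covariate 0 of the 10 were higher and 0 lower, 612 and 340 of all genes, and 1 and 3 of the other lists; Kmt2d turned to -0.13 and Kdm5c to 0.29. Among libraries over 4000000 counts 0 of the 10 were higher and 1 lower, 821 and 544 of all genes, and 1 and 3 of the other lists; Kmt2d turned to -0.020, Cxxc1 to -0.0049 and Kdm5c to 0.12.

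The replicate numbers of the sample titles did not pair the libraries. Over the 6 numbers shared by the regions the correlation of same-numbered deviations was -0.017 to 0.11. Of 6 distal libraries, 2 correlated best with their own number. The count columns carry other numbers for control set 2 and both distal sets, and a pairing by those was not tested. With the replicate block, built on the title numbers, 0 of the 10 genes were higher, Setd1a having 0.71, Kmt2b 0.52 and Cxxc1 1.06.

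Without control set 1, 0 of the 10 were higher and 1 lower, 1187 and 1113 of all genes, and 2 and 13 of the other lists; Rbbp5 turned to 0.53 and Hcfc1 to 0.14. Without distal set 1, 0 of the 10 were higher, 1674 of all genes were lower and 3 of the other lists higher. Without distal set 2, 1 of the 10 was lower, and Kmt2a turned to 0.25, Rbbp5 to 0.085 and Hcfc1 to 0.27. With the trend also removed, the fit without control set 1 called 0 of the 10 higher and 1 lower, with Kmt2c at 0.061, Bod1l at 0.39, Kmt5a at -0.043 and Ly6a at 0.086; without control set 2 Rbbp5 was at -0.083 and Ehmt2 at 0.068; without distal set 1 Rbbp5 was at -0.019 and Cxxc1 at -0.18. Without distal set 2 it called 0 higher and 1 lower, with Setd1a at 0.068, Kmt2a at 0.14, Kmt2c at 0.0023, Bod1l at 0.18, Spin1 at 0.023 and Ehmt2 at 0.14.

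Leaving out 1 library at a time gave 1 to 4 of the 10 genes higher, the 1 without distal replicate 2. Kmt2a ran from -0.19 to 0.072 and Hcfc1 from -0.14 to 0.052; with the trend removed Kmt2a ran from -0.14 to 0.015, Kmt2c from -0.083 to 0.044, Cxxc1 from -0.16 to 0.40, Bod1l from -0.24 to 0.025, Spin1 from -0.096 to 0.015 and Ehmt2 from -0.18 to 0.055. Between the control sets Setd1a ran from -0.27 to 0.42, Setd1b from -0.0077 to 0.26, Kmt2d from -0.10 to 0.051, Ash2l from -0.014 to 0.17 and Cxxc1 from -0.14 to 0.78, with 0 to 2 genes higher. Between the distal sets Kmt2b ran from -0.49 to 0.23, Kmt2c from -0.083 to 0.13, Wdr5 from -0.16 to 0.16 and Ash2l from -0.24 to 0.15. Where a set is left with 1 library, that library is assumed to vary like the others. With median transcript length in place of merged exons the levels per kb of the 10 genes in control libraries were higher, Kmt2d coming first at 162.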
